A study of Mus musculus with 6 samples.

Results

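Cyp17a1 and 8 other genes of hepatic steroid metabolism were examined in the livers of mice kept on a NASH diet, one that gives rise to fatty, inflamed and scarred livers. The genes were Cyp17a1, Hsd3b2, Hsd3b3, Hsd17b2, Hsd17b6, Srd5a1, Akr1d1, Akr1c6 and Hsd11b1, taken by symbol from a table of 17460 genes. They were selected on the comparison of control with Blnc1 LKO livers, so their differences between the groups are given as a description, and nothing is read from whether they passed a test. All 9 passed the filter on low values, which asked for 1 or more in 3 or more livers and left 17297 genes in all.

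The study compared 3 control livers with 3 livers in which Blnc1, a long noncoding RNA, was targeted for deletion. The mice were C57BL/6, 9 months old, and had received the NASH diet (D09100301) for 24 weeks in both groups. Both groups carried a transgene that expresses Cas9 constitutively. Liver-specific knockout (LKO) mice were made with an adenovirus encoding sgRNAs against Blnc1, given into the tail vein, and the control adenovirus of the study expressed GFP. The knockout thus depends on cells that adenovirus enters, in the liver mainly hepatocytes. The paper reported that Blnc1 fell only in part in whole liver, fell further in hepatocytes and stayed largely unaltered in the other liver cells. The level of Blnc1 was not analysed here, so the knockout was not checked at its target. Nothing in the sample labels says that the livers came from separate litters or cages, or that replicate numbers pair them.

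The liver modifies steroid hormones that reach it from the adrenal gland and gonads. P450 enzymes hydroxylate the steroid rings, hydroxysteroid dehydrogenases switch hydroxyl and keto groups at single carbons and so turn hormones on or off, and ring reductases commit them to clearance. Several of these genes differ between male and female mouse liver under the control of growth hormone pulses, and Akr1d1 also serves bile acid synthesis.

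Sequencing gave 65384969 to 89350181 reads on the listed genes per liver. The values are normalized read counts, that is, the reads of a gene scaled by the size factor of each library, with no correction for gene length. The lowest read count behind any value of the 9 genes was 1011, for Cyp17a1, at which the counting error is 0.045 on the log2 scale. The hepatocyte markers Alb, Apoa1, Apoc3, Ttr, Fgb and Serpinc1 were abundant in every liver, with a summed value of 5160399 to 5695315 in control and 5053572 to 6082934 in LKO livers.

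The 3-beta-hydroxysteroid dehydrogenase genes Hsd3b2 and Hsd3b3 lie side by side on the minus strand of chromosome 3 (GRCm38), at chr3:98709255-98724543 and chr3:98741523-98763127. Their coding sequences are identical at 1064 of 1119 bases (95.1%). The longest run they share, 228 bases from coding base 153 to 380 in both genes, is shown because a short read inside it fits both genes and cannot be assigned by sequence. It crosses from exon to exon, over chr3:98713428-98713585 and chr3:98712248-98712317 in Hsd3b2 and over chr3:98743823-98743980 and chr3:98742626-98742695 in Hsd3b3.
Hsd3b2 and Hsd3b3, shared coding run: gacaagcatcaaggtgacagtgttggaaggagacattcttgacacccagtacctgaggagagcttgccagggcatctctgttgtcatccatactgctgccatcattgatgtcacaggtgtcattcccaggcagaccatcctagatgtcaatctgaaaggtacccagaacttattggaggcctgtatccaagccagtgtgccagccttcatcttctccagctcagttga

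Of all 50-base stretches of their transcripts, 25.1% for Hsd3b2 and 6.69% for Hsd3b3 occur in another gene, and within the coding sequence these shares are 35.6% and 34.1%. Hsd3b6 is the other close relative, with a coding sequence 94.5% identical to that of Hsd3b3. Hsd17b6 shares 12.1% of its stretches with retinol dehydrogenase genes such as Rdh1. Srd5a1 shares 15.1%, all with Gm17108, an overlapping gene of the same strand. Akr1c6 shares 1.38% with Akr1c20. Cyp17a1, Hsd17b2, Akr1d1 and Hsd11b1 share none. The library kit does not mark strand and the counting mode was not given in the sources used here, so the values of Hsd3b2, Hsd3b3, Hsd17b6 and Srd5a1 carry this uncertainty. Exons of Hsd3b2 and Hsd3b3 also overlap Zfp697 on the opposite strand, which was chosen after its values were seen and stood at 69.3 to 107 in the 6 livers.

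The promoters of Srd5a1 and Akr1d1, 250 bases before to 50 after the start site (RefSeq, GRCm38.p6), are shown because these genes encode the competing 5-alpha and 5-beta reductases of the same substrates, and their values are set side by side below. Srd5a1 at chr13:69611414-69611713 (minus strand) has a GC content of 63.0%, above that of 77.8% of promoters. Akr1d1 at chr6:37529923-37530222 (plus strand) has 45.7%, above that of 24.0%, and the median of all promoters is 52.7%. Capitals mark matches to the 4 motifs searched on both strands.
Srd5a1 promoter: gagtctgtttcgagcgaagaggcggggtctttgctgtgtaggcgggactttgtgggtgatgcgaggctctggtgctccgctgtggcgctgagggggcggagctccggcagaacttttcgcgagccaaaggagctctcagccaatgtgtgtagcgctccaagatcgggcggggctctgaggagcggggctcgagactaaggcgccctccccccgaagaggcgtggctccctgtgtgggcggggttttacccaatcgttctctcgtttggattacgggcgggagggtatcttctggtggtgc
Akr1d1 promoter: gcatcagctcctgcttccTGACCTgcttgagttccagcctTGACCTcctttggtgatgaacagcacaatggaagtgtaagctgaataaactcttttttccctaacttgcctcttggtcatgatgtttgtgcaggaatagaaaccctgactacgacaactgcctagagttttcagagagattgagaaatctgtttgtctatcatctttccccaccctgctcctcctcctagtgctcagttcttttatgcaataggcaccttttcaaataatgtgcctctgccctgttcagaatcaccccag

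The motifs were AGGTCA, the nuclear receptor half-site, TGTTCT, the steroid receptor half-site, TTCNNNGAA, the STAT site, and TATAAA, the TATA box. Promoters of 7 of the 9 genes were in the RefSeq table. AGGTCA occurred in 1 of the 7 (Akr1d1, with 2 matches on the other strand, written TGACCT), against 16.3% of 32851 promoters. TGTTCT occurred in 1 (Hsd3b2), against 19.0%, and TATAAA in 1 (Akr1c6), against 13.6%. TTCNNNGAA occurred in 0 of the 7, against 8.30%. These matches describe letters in the window only.

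Cyp17a1 encodes the microsomal P450 that carries out 17-alpha-hydroxylation and the lyase step toward androgens. The gene lies on the minus strand at chr19:46667165-46673172 and has 8 exons. Its normalized count was 3198, 2179 and 2796 in control livers 1, 2 and 3 and 1722, 949.9 and 1008 in LKO livers 1, 2 and 3. Every LKO liver was below every control liver, with LKO liver 1 closest to the controls. The mean was 2724 ± 513 in control and 1227 ± 430 in LKO livers (SD, n = 3 each), so the LKO mean was 0.450 times the control mean. On the log2(value + 1) scale the difference was −1.19 (SE 0.22). With each liver left out in turn it ranged from −1.46, without LKO liver 1, to −1.03, without LKO liver 2.

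Cyp17a1 is best known from steroid-producing tissues such as the gonads, so defining genes of the adrenal gland and gonads were examined beside it. Of 10 markers, 5 were listed in the table, and Cyp11b1, Cyp19a1, Nr5a1, Mc2r and Lhcgr were not among the listed genes. Cyp11a1, which makes the first committed cut of cholesterol to steroid, had 0 to 5 reads per liver, and the aldosterone synthase gene Cyp11b2 had 0 to 4. Star had a normalized count of 194 to 231, Cyp21a1 of 336 to 599.8 and Insl3 of 9.52 to 28.8. The summed value of the 5 markers was 665 to 859 in control and 556 to 824 in LKO livers, and the groups overlapped.

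**Figure D1:**
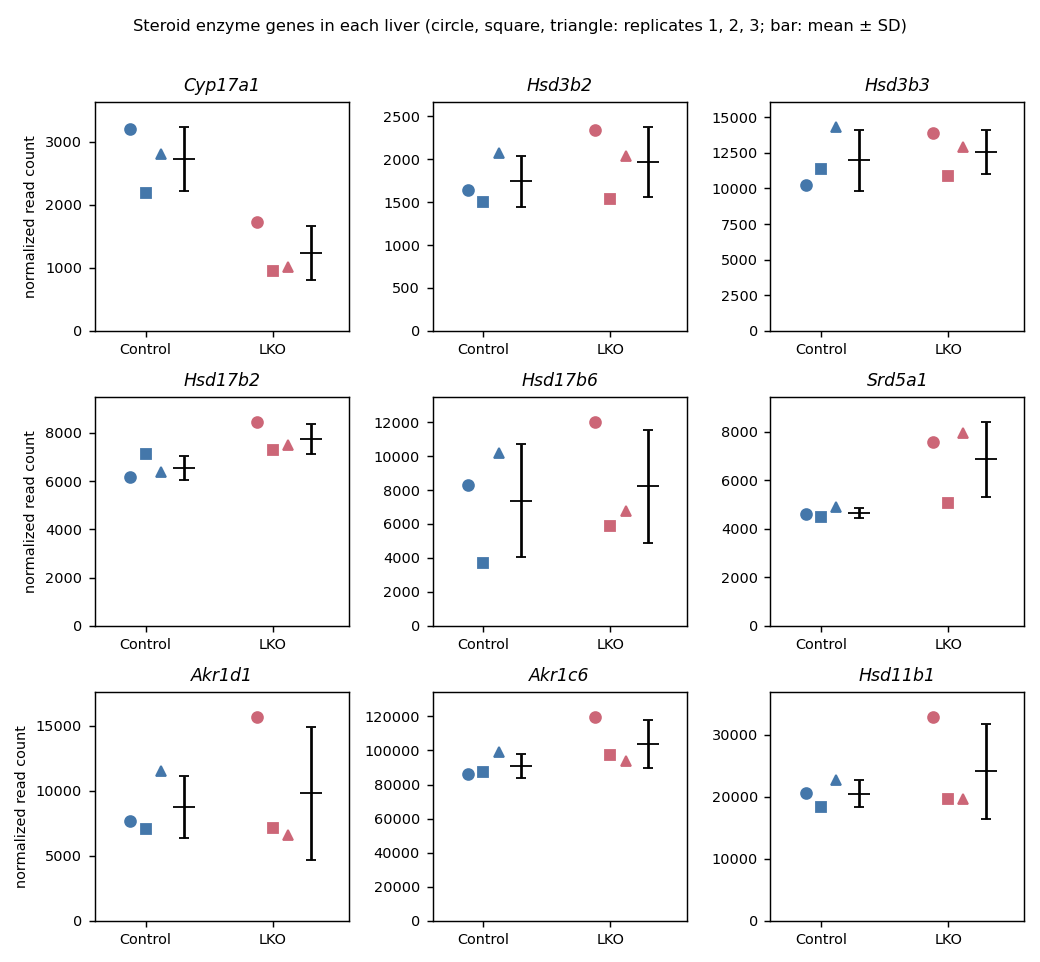
Normalized read count of the 9 genes in each liver, 1 panel a gene, each with its own linear axis from 0. Points are single livers and the black bar is the group mean with its SD (n = 3). Cyp17a1 is the gene with all LKO livers (949.9 to 1722) under all control livers (2179 to 3198), and Hsd17b2 and Srd5a1 have all LKO livers above.

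The 5-alpha reductase Srd5a1, which turns testosterone into dihydrotestosterone and also inactivates glucocorticoids, went the other way. Its gene lies at chr13:69573449-69611442 (minus strand). Its normalized count was 4596, 4497 and 4893 in control livers and 7569, 5065 and 7938 in LKO livers. All LKO livers were above all control livers, and LKO liver 2 was close to the control range. The mean was 4662 ± 206 in control and 6857 ± 1563 in LKO livers (SD, n = 3 each), and the log2 difference was 0.53 (SE 0.15). Leaving out single livers moved it between 0.41 and 0.73.

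The 5-beta reductase Akr1d1 at chr6:37530173-37568815 (plus strand) acts on the same ketosteroids and on bile acid precursors. Its normalized count was 7683, 7059 and 11492 in control livers and 15685, 7125 and 6594 in LKO livers. The highest value, in LKO liver 1, and the lowest, in LKO liver 3, both lay in the LKO group, and the groups overlapped. The means were 8745 ± 2399 and 9801 ± 5103 (SD, n = 3 each), with a log2 difference of 0.08 (SE 0.31). The sign of the difference rested on LKO liver 1, without which it was −0.32, and on control liver 2, without which it was −0.06.

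The log2 ratio of Srd5a1 to Akr1d1 within a liver compares 5-alpha with 5-beta reductase transcripts. It was −0.74, −0.65 and −1.23 in control livers and −1.05, −0.49 and 0.27 in LKO livers. LKO liver 3 was the liver in which the Srd5a1 value exceeded that of Akr1d1, and the groups overlapped. The means were −0.87 ± 0.31 and −0.43 ± 0.66 (SD, n = 3 each), a difference of 0.45. Single livers moved it widely, to 0.10 without LKO liver 3, 0.27 without control liver 3 and 0.76 without LKO liver 1.

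Hsd17b2 encodes the dehydrogenase that oxidizes estradiol and testosterone at carbon 17 to their weaker keto forms. It lies at chr8:117701904-117759027 on the plus strand. Hsd17b2 had a normalized count of 6162, 7119 and 6374 in control livers and 8463, 7283 and 7478 in LKO livers. All LKO livers were above all control livers, by a small gap between LKO liver 2 and control liver 2. The means were 6552 ± 503 and 7741 ± 632 (SD, n = 3 each), and the log2 difference was 0.24 (SE 0.08), 0.17 to 0.30 with single livers left out.

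Akr1c6 at chr13:4434306-4457877 (plus strand) encodes a hepatic aldo-keto reductase that acts in the reverse direction at carbon 17, from androstenedione to testosterone. It was the most abundant of the 9 transcripts, with a normalized count of 86198, 87562 and 99260.4 in control and 119862, 97349 and 93868 in LKO livers. LKO liver 1 was the highest, and LKO livers 2 and 3 lay inside the control range. The means were 91007 ± 7180 and 103693 ± 14110 (SD, n = 3 each), with a log2 difference of 0.18 (SE 0.11). Without LKO liver 1 the difference was 0.07. The log2 ratio of Hsd17b2 to Akr1c6 was −3.80 ± 0.17 in control and −3.74 ± 0.09 in LKO livers (SD, n = 3 each), and the groups overlapped. The difference of 0.06 ranged from −0.02, without control liver 3, to 0.15, without control liver 2.

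Hsd17b6 at chr10:127990936-128007611 (minus strand) encodes an oxidizing enzyme that returns androstanediol to dihydrotestosterone. In control livers it had a normalized count of 8271, 3678 and 10195.5, and in LKO livers of 12032, 5874 and 6783. The lowest liver was a control and the highest was LKO liver 1, and the groups overlapped. With means of 7381 ± 3349 and 8229 ± 3324 (SD, n = 3 each), the log2 difference of 0.21 was smaller than its SE of 0.38. It was −0.23 without control liver 2 and −0.10 without LKO liver 1.

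Hsd3b2 and Hsd3b3 belong to the family that turns hydroxysteroids such as pregnenolone into ketosteroids, the step that yields progesterone and androstenedione. The normalized count of Hsd3b2 was 1644, 1502 and 2078 in control and 2346, 1534 and 2035 in LKO livers. That of Hsd3b3 was 10229.7, 11352 and 14352 in control and 13879, 10863 and 12939.6 in LKO livers. The groups overlapped for both genes, and replicate 2 was the lowest of the LKO livers in each. The log2 difference was 0.17 (SE 0.16) for Hsd3b2 and 0.08 (SE 0.13) for Hsd3b3. For Hsd3b3 it was −0.03 without control liver 1. Because of the shared sequence the values of both genes were also summed, which gave 13719 ± 2398 in control and 14532 ± 1951 in LKO livers (SD, n = 3 each), with Hsd3b2 taking 11.7% to 14.5% of the sum in the 6 livers.

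Hsd11b1 at chr1:193221634-193264075 (minus strand) encodes the reductase that regenerates active corticosterone inside hepatocytes. Hsd11b1 had a normalized count of 20522, 18299 and 22694 in control livers and 32913, 19645 and 19679 in LKO livers. LKO liver 1 stood above the rest, while LKO livers 2 and 3 lay inside the control range. The means were 20505 ± 2198 and 24079 ± 7650 (SD, n = 3 each), and the log2 difference of 0.19 (SE 0.19) was −0.06 without LKO liver 1. H6pd, which supplies Hsd11b1 with NADPH, had a log2 difference of 0.11 (SE 0.07). The glucocorticoid receptor gene Nr3c1, chosen after its values were seen, had 0.02 (SE 0.08), and the opposing dehydrogenase gene Hsd11b2, likewise chosen, had 1 to 8 reads per liver.

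**Figure D2:**
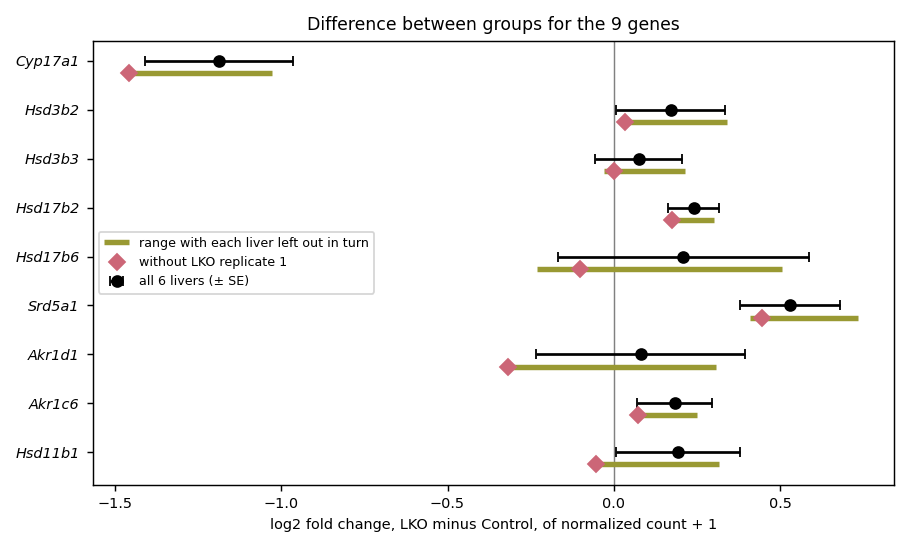
Difference between LKO and control livers for the 9 genes on the log2(normalized count + 1) scale. Black points are the limma estimates from 6 livers with their SE, olive lines span the estimates with each liver left out in turn, and diamonds are without LKO liver 1. The Cyp17a1 estimates span −1.46 to −1.03, and the diamonds of Hsd17b6, Akr1d1 and Hsd11b1 lie below 0.

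Counted over the 9 genes, the LKO mean was higher in 8 and lower in 1. All LKO livers exceeded all control livers for 2 genes, a pattern found in 5.35% of all genes tested, and lay below all control livers for 1, a pattern found in 5.28%. The groups overlapped for the other 6. By limma with Benjamini-Hochberg adjustment over all genes, 0 of the 9 had an adjusted p under 0.05, against 0.00578% of all genes. At an unadjusted p under 0.05 there were 2 higher (Hsd17b2 and Srd5a1), against 2.94% of all genes, and 1 lower (Cyp17a1), against 2.74%. edgeR on the recovered reads also called 0 of the 9, and DESeq2 called 1, Srd5a1, against 0.538% of its genes. Since the genes were chosen with this comparison known, nothing is read from these counts.

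The spread between livers of one group was larger for these genes than for most. Over the 12488 genes with a mean of at least 100, the median within-group SD was 0.10 on the log2 scale, and all 9 genes were above it. The SD was 0.67 for Hsd17b6, larger than in 99.5% of those genes, 0.56 for Akr1d1, larger than in 99.2%, and 0.39 for Cyp17a1, larger than in 97.8%. It was smallest for Hsd17b2, at 0.11, and for Akr1c6, at 0.16. Hsd17b6 differed 2.77-fold between the highest and lowest control liver, whereas Srd5a1 differed 1.09-fold among controls and 1.57-fold among LKO livers.

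Single livers were high or low for several of the genes. LKO liver 1 was the highest LKO liver for 8 of the 9 genes, all except Srd5a1, and the highest of all 6 for 6 of them. Over all genes tested, it was the highest LKO liver for 35.8% and the highest of all 6 for 25.5%. In LKO liver 1 the value of Akr1d1 was 2.29 times, that of Hsd17b6 1.90 times, that of Cyp17a1 1.76 times and that of Hsd11b1 1.67 times the mean of the other LKO livers. LKO liver 2 was the lowest LKO liver for 7 genes. Among controls, liver 3 was the highest for 7 genes and liver 2 the lowest for 6. The shares of all genes for these last counts, of LKO liver 2 and of the controls, were not computed, and nothing is read from them.

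**Figure D3:**
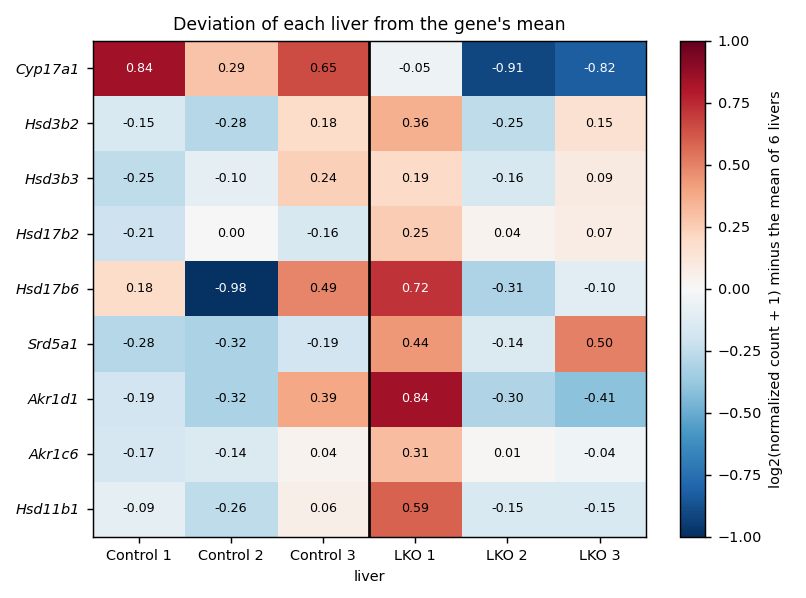
Heat map of the log2(normalized count + 1) of each gene (rows) in each liver (columns) minus the gene's mean over the 6 livers, with the value printed in each cell. Red is above and blue below the mean, and the black line divides control from LKO livers. The LKO 1 column is above the mean for every gene except Cyp17a1, and the strongest blue among controls is Hsd17b6 in control liver 2.

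Marker lists, chosen with earlier results of these data known, were read beside these differences. Each was scored as the mean log2 deviation of its genes from the control mean. For hepatocyte markers LKO liver 1 stood at 0.15 and the other livers between −0.03 and 0.01. All 10 pericentral markers had a higher LKO mean, 3 of them at an unadjusted limma p under 0.05. Over all genes tested, 2.94% were higher and 2.74% lower at that p. The summed value of the pericentral markers was 757270.0 to 819574 in control and 839988 to 1142016 in LKO livers. Most of this sum was Cyp2e1, at 469700 to 516727 in control and 552886 to 744646 in LKO livers. The deviation of the pericentral markers was 0.42, 0.01 and 0.27 in LKO livers 1, 2 and 3. Of 10 periportal markers 8 were lower, 0 of them at that p, with sums of 379265 to 483353 in control and 340849 to 435857 in LKO livers.

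Male-biased liver genes stood further apart. All 15 had a higher LKO mean, 12 at an unadjusted limma p under 0.05. Over all genes tested, 2.94% were higher and 2.74% lower at that p. This list, too, was chosen with earlier results of these data known, so these counts are a description. Moxd1, counted among the 12, had 0 to 48 reads per liver. The summed value of the 15 genes was 660752 to 928147 in control and 978744 to 1320584 in LKO livers. Most of this sum was Mup20, at 552351 to 786771 in control and 829270 to 1087550 in LKO livers. The deviation of the 15 genes was 1.66, 0.61 and 1.37 in LKO livers 1, 2 and 3 and 0.40 in control liver 2. As given above, LKO liver 2 was the lowest LKO liver for 7 of the 9 steroid genes, Srd5a1 and Cyp17a1 among them. Nothing is read from this count, and Cyp17a1, unlike the 15 genes, was lower in LKO livers. Of 12 female-biased genes 8 were higher, 1 of them at that p, with overlapping sums of 6357 to 10040.0 in control and 6194 to 10974 in LKO livers. Of these 12 genes, 3 had fewer than 10 reads in every liver. Macrophage markers summed to 29045 to 35014 in control and 35927 to 41724 in LKO livers, without overlap, with 4 of 6 higher, 3 of them at that p. Stellate cell markers summed to 73134 to 77880 and 61742 to 73781, with 5 of 6 lower, 2 of them at that p. Endothelial markers summed to 20275 to 21554 and 19687 to 20539, with 4 of 6 lower, 2 of them at that p. Lymphocyte markers (976 to 1401 and 941 to 1282) and cholangiocyte markers (59856 to 71742 and 47410.3 to 71586) overlapped between the groups, with 5 of 6 lower in each list and 0 at that p. The part of these shifts in the values of the 9 genes was not tested. In whole liver, fewer cells of a type and less RNA per cell cannot be told apart.

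To compare levels between genes, values were divided by the length of the gene's exons, joined over all annotated transcripts. This length ran from 1575 bases for Hsd17b6 to 6396 for Hsd3b3, so the order depends in part on the annotation. The shared sequence described above adds uncertainty for Hsd3b2, Hsd3b3, Hsd17b6 and Srd5a1. Per kilobase, the mean control level was 44760 for Akr1c6, 4824 for Hsd11b1, 4687 for Hsd17b6, 3405 for Hsd17b2, 3023 for Akr1d1, 1873 for Hsd3b3, 1603 for Srd5a1, 983.8 for Cyp17a1 and 471 for Hsd3b2. In this order, Akr1c6 lay above Hsd11b1, Akr1d1 above Hsd3b3, Srd5a1 above Cyp17a1 and Cyp17a1 above Hsd3b2 without overlap of the 3 livers, and the other neighbours overlapped. In LKO livers the last positions were taken by Hsd3b2, at 534, and Cyp17a1, at 443, which overlapped. Srd5a1 stood at 2357 per kilobase and Hsd3b3 at 1964, also with overlap, and the order of the first 5 genes was as in controls.

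The genes whose profile over the 6 livers was nearest to that of Cyp17a1 were found by the root mean square distance of the centred log2 values, among 12487 genes with a mean of at least 100. They were Gzmk, a granzyme of lymphocytes, at 0.28, Acnat2, an acyl-CoA amino acid N-acyltransferase, at 0.29, Mmd2 at 0.30, Nipal1 at 0.35 and Slc3a1, a subunit of the cystine transporter, at 0.40. The median distance over all these genes was 0.68. Acnat2 had 2037, 1729 and 2419 in control livers and 1331, 1164 and 981 in LKO livers. Mmd2 had 1224, 846 and 1406 in control livers and 524, 536 and 353 in LKO livers. In all 5 genes the LKO livers lay below the control livers, which the choice by likeness to Cyp17a1 favours. The other 8 steroid genes ranked from 7453 (Akr1d1, distance 0.69) to 12314 (Srd5a1, distance 0.91) in this order.

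**Figure D4:**
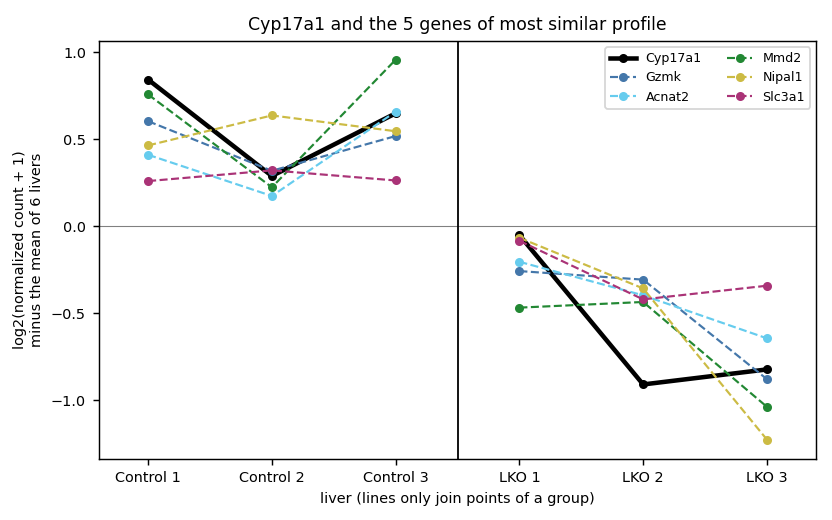
Log2(normalized count + 1) minus the mean of 6 livers (y axis) in each liver (x axis) for Cyp17a1 (black) and the 5 genes of smallest distance from it. All 6 genes are above 0 in the controls and below 0 in the LKO livers, and LKO liver 1 is the LKO liver nearest to 0 for each of them except Mmd2.

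A wider list of 70 steroid pathway genes, none of them among the 9, was chosen with earlier results of these data known. Its counts in the same fit are therefore a description. The table held 64 of the 70 genes, and all 64 were tested. None passed an adjusted p of 0.05 in limma, edgeR or DESeq2. At an unadjusted limma p under 0.05 there were 7 higher (10.9%, against 2.94% of all genes) and 2 lower (3.12%, against 2.74%) in LKO livers, and without LKO liver 1 the counts were 5 and 5. The mean normalized count was higher for 40 and lower for 24, the log2 difference was above 0 for 37 and below 0 for 27, and its median was 0.02, against −0.00099 over all genes tested. All LKO livers exceeded all controls for 6 genes (9.38%, against 5.35% of all genes) and lay below for 1 (1.56%, against 5.28%).

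Among the relatives of Hsd3b2 and Hsd3b3, Hsd3b5 had the largest difference of the list. This gene encodes a ketosteroid reductase of male mouse liver and is one of the 15 male-biased genes above. Its normalized count was 20.5, 120 and 16.0 in control livers and 2568, 209 and 363 in LKO livers. All LKO livers were above all controls, and LKO liver 1 was far above the rest. The log2 difference was 4.04 (SE 0.98, adjusted p = 0.555 by limma). Hsd3b7, a bile acid synthesis enzyme and the most abundant relative, had 0.20 (SE 0.09).

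Of the 8 other 17-beta-hydroxysteroid dehydrogenase genes, 7 had a higher and 1 a lower mean normalized count. Hsd17b11 had a log2 difference of 0.24 (SE 0.11), with LKO liver 2, at 21638, inside the control range of 20932 to 22924. Hsd17b4, the peroxisomal member and the most abundant, had 0.03 (SE 0.07). Of the 9 relatives of the reductases, 8 had a higher mean normalized count. Akr1c21 had 0.94 (SE 0.40) at 4 to 18 reads per liver, and the abundant Akr1c14 had 0.11 (SE 0.19).

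The 6 genes of electron donors, which P450 enzymes such as Cyp17a1 need, ranged from −0.05 to 0.09 in log2 difference, and 0 of them had an unadjusted p under 0.05. Cyb5a, which stimulates the lyase step of Cyp17a1, had a mean normalized count of 75497 ± 5582 in control and 80621.5 ± 6538 in LKO livers (SD, n = 3 each). The groups of Cyb5a overlapped, with a log2 difference of 0.09 (SE 0.09).

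Of 7 clearance enzymes, 3 had an unadjusted limma p under 0.05 and were higher in LKO livers, a result found in 2.94% of all genes, and the groups of 2 of these 3 overlapped. Cyp1a2, a P450 that hydroxylates estrogens, had 11541, 10431 and 13610.4 in control livers and 25201, 14904 and 14585 in LKO livers, with no overlap and a log2 difference of 0.58 (SE 0.20). Cyp7b1, the oxysterol hydroxylase and another of the male-biased genes, had 0.65 (SE 0.22), and its groups overlapped. Cyp3a11, the abundant testosterone hydroxylase, had 0.48 (SE 0.18), also with overlap. Serpina6, the plasma carrier of corticosterone, had −0.09 (SE 0.21).

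Among the receptor genes, Pgrmc1, a membrane steroid-binding protein and the most abundant of this group, had a log2 difference of 0.12 (SE 0.10). Of 6 transcription factor genes 3 were higher and 3 lower, with Hnf4a at 0.04 (SE 0.07).

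Of 14 known glucocorticoid target genes, the log2 difference was below 0 for 11 and above 0 for 3, with a median of −0.15. The mean normalized count was lower in LKO livers for 9 and higher for 5. Mt1, a metallothionein, had −0.49 (SE 0.20), with 7923, 8223 and 7006 in control and 7065, 6138 and 3822 in LKO livers. LKO liver 1 lay inside the control range of Mt1. The transcription factor gene Klf9 had 0.24 (SE 0.09) and all LKO livers above all controls. Pck1, a gluconeogenic enzyme, had −0.13 (SE 0.09).

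**Figure D5:**
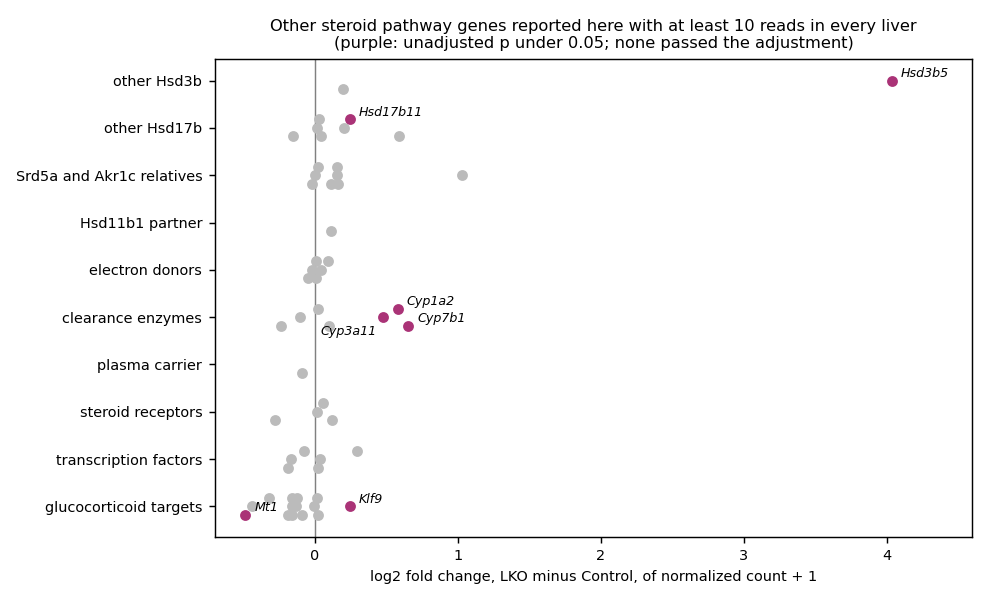
Log2 difference between LKO and control livers (x axis) for 56 of the other steroid pathway genes, whose lowest liver had 10 reads or more, by group of genes (rows, points offset for legibility). The plotted points are single genes, and purple points have an unadjusted limma p under 0.05 and grey points do not. Hsd3b5, at 4.04, stands apart at the right, and the electron donors lie between −0.05 and 0.09.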

How the data were processed

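RNA was measured in 3 control and 3 Blnc1 LKO livers. The authors used STAR for alignment to mm10, HTSeq for gene counts and DESeq2 for testing, and the sources used here give no version of these tools. The signal in the deposited table is a gene count scaled by the size factor of each library. Dividing by the value of 1 read gave whole reads (tolerance 0.01) for 100% of values. Table columns named for wild-type and knockout livers were matched to the labels by group and number.

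limma (3.58.1, R 4.3.3; lmFit, eBayes with a trend) was fitted to log2(value + 1) over the 17297 genes that reached 1 in 3 or more livers, without covariates, with Benjamini-Hochberg adjustment. Fold changes on this scale understate those of low genes. Alternatives were edgeR (4.0.16) and DESeq2 (1.42.0) on recovered reads, library size scaling, a pseudocount of 0.1, no filter, at least 10 reads in every liver, a replicate block and each liver left out. The fits were tested on simulated data.

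The 9 genes, the gene lists and the tests were chosen with earlier results of these data known. Named from the wider list were genes with an unadjusted p under 0.05 and the most abundant of each group, and the 5 genes nearest to Cyp17a1 were named by profile. A gene of the wider list is counted but not reported here. Positions and transcripts are from GENCODE M21 (GRCm38, equal to mm10) and promoters from RefSeq. p-values weigh the group difference only against the spread between these livers, which limma moderates over all genes tested.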

Additional observations from a re-analysis of the deposited data

How the results depend on the processing

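In limma, 1 gene of the whole table passed an adjusted p of 0.05. The count was 2 with edgeR, 84 with DESeq2, 2 with no filter on low values and 0 with the replicate block, and 0 to 13 with each liver left out, the highest without LKO liver 2. Srd5a1 was among the genes called by DESeq2 and among the 13 called without LKO liver 2, and no other of the 9 genes was called in any setting run. The cause was not tested. No gene of the wider steroid list was called in any setting run, and the number at an unadjusted p under 0.05 was 4 to 9 higher and 0 to 5 lower with single livers left out.

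Over 13 alternatives, the sign of the log2 difference was the same in 13 for Cyp17a1, Hsd3b2, Hsd17b2, Srd5a1 and Akr1c6, in 12 for Hsd11b1 and in 11 for Hsd3b3, Hsd17b6 and Akr1d1. The filter settings and the replicate block cannot change this estimate, so their signs were fixed in advance. Every change of sign came with a single liver left out. The deviations of livers with the same replicate number correlated at −0.06, −0.02 and −0.11, and those with different numbers at −0.05 to 0.11. These values cannot show whether the livers were matched by litter, cage or batch, which the labels do not give. Library size scaling moved the median log2 difference of all genes to −0.0065. The counting error at the lowest read count was 0.005 to 0.045 on the log2 scale for the 9 genes, against a spread within groups of 0.11 to 0.67.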
